A study of Mus musculus with 2 samples.

Results

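The embryonic globin genes Hba-x, Hbb-bh1 and Hbb-y were followed in the liver of a wild-type (WT) C57BL/6 mouse embryo (C57BL/6J in the study's methods) at E12.5. These 3 genes were found by symbol among the 27998 genes of the deposited counts, and all 3 were detected in both libraries. The single cell suspension came from 1 liver, was sorted to remove debris, dead cells and doublets, and was processed as 2 technical replicate libraries by droplet-based scRNA-seq, which counts captured RNA molecules by unique molecular identifiers (UMIs). No treatment or second genotype was included, so all values describe unperturbed cells of this liver. Cell types follow the annotation table of the authors, which holds HPSC (hematopoietic stem and progenitor cells), Ery (erythroid progenitors, subclusters Ery 1 and Ery 2), Eryb (definitive erythroblasts, subclusters Ery 3 to Ery 6), EryP (primitive erythroblasts), Mk (megakaryocytes), G (granulocytes), Mo/KC (monocytes and Kupffer cells), Hepa (hepatoblasts) and EC (endothelial cells).

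Globin chains pair as alpha-like and beta-like subunits of hemoglobin, and the genes of each kind lie in a cluster, the embryonic genes before the adult genes. Hba-x encodes the embryonic alpha-like chain zeta, whereas Hbb-y and Hbb-bh1 encode embryonic beta-like chains. Primitive erythroblasts arise in the yolk sac and carry these chains into the circulation, whereas definitive erythroblasts mature in the fetal liver and make mainly the adult alpha-like chains of Hba-a1 and Hba-a2 and the adult beta-like chains of Hbb-bs and Hbb-bt.

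In the GENCODE annotation of GRCm38, Hba-x (ENSMUSG00000055609) lies at chr11:32276400-32278116 on the plus strand, close to Hba-a1 and Hba-a2. Hbb-y (ENSMUSG00000052187, chr7:103851749-103853216) and Hbb-bh1 (ENSMUSG00000052217, chr7:103841637-103843164) lie on the minus strand of the beta-globin cluster, upstream of Hbb-bs and Hbb-bt. Each of the 3 embryonic genes has 3 exons. The coding part of the last exon is shown for the embryonic beta-like genes and for adult Hbb-bs, because a count can be given to a single gene only where these related transcripts differ. Sequences are written 5′ to 3′ on the coding strand from the GENCODE transcripts, and capitals mark the bases at which an embryonic gene differs from Hbb-bs.
Hbb-bh1, chr7:103841752-103841880: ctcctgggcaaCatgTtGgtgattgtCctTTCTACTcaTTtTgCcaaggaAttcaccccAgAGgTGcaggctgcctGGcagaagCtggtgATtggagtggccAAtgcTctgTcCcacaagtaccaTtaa
Hbb-y, chr7:103851874-103852002: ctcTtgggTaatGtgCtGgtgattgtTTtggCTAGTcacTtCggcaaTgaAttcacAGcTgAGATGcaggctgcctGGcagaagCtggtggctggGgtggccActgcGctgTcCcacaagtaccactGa
Hbb-bs, chr7:103826665-103826793: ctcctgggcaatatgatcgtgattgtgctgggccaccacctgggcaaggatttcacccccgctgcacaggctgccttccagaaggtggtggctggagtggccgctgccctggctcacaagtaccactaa
Hbb-bh1 differed from Hbb-bs at 32 of these 129 bases, Hbb-y differed from Hbb-bs at 33, and Hbb-bh1 and Hbb-y differed from each other at 25. The longest run of bases shared by the whole transcripts of Hbb-bh1 and Hbb-y was 26, and that shared by Hba-x and Hba-a1 was 18. By contrast, Hbb-bs and Hbb-bt shared a run of 430 bases and Hba-a1 and Hba-a2 a run of 415. The division of counts within each adult pair is thus uncertain where reads fall in these runs. After the stop codon, the longest shared run was 8 bases for Hbb-bs and Hbb-bt and 74 for Hba-a1 and Hba-a2. The part of the transcripts that was read is not stated in the sources used.

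Sequence upstream of the start was available in the RefSeq table (GRCm38.p6) for Hbb-y and Hba-x. The window of Hbb-y is shown because it holds several copies of 1 motif, with the shorter adult Hbb-bs window for contrast. Capitals mark matches on either strand to CACCC (the core of the motif of Kruppel-like factors), GATAA (the motif of GATA factors), CCAAT (a common promoter box), TGACC (the letters of a nuclear receptor motif), TATAAA (the TATA box) and its variant spelled ATAAAA. Matches of TGACC and CCAAT overlap once in the Hbb-y window.
Hbb-y upstream, chr7:103853217-103853457, minus strand: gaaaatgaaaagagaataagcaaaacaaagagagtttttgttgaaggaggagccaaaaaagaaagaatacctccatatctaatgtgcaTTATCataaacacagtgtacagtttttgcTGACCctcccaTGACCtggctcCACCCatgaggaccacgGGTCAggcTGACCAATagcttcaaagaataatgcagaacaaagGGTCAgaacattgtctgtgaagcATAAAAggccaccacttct
Hbb-bs upstream, chr7:103827929-103828011, minus strand: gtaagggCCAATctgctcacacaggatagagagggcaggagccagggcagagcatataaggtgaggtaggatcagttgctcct
In windows of 250 bases before the start, TGACC occurred 5 times for Hbb-y, once for Hba-x and Hbb-bt, and not for Hbb-bs, Hba-a1 or Hba-a2. At least 1 match was present in 35.2% of all 32851 windows of that length, and 5 or more in 0.0426%. CCAAT occurred once for Hbb-y and Hbb-bs but not for Hba-x (33.8% of all windows), whereas CACCC (52.0% of all windows) and GATAA (22.6%) occurred in the windows of each of these genes. The TATA box occurred once for Hba-x and once for adult Hbb-bt, at the same distance of 28 bases from the start (12.4% of all windows), and its variant once for Hbb-y (17.0%). A match describes the letters of a window and says nothing about binding.

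The 2 libraries held 5480 and 5057 annotated cells with 51969226 and 62738015 UMIs, and a median of 6261 and 9774 UMIs per cell. The smallest annotated cell had 504 UMIs in library 1 but 4387 UMIs in library 2, so small cells entered library 1 but not library 2. A total of 31 barcodes occurred in both libraries. Markers of each annotated type were highest in that type, in both libraries, for 3 of 3 primitive erythroid (the embryonic globin genes themselves), 5 of 5 erythroid (with Ery and Eryb taken as 1 type, since Klf1 and Epor were highest in Ery in library 2), 4 of 4 Mk, 4 of 4 G, 4 of 4 hepatoblast, 4 of 4 EC, 3 of 4 Mo/KC and 3 of 5 HPSC markers. The exceptions were Vsig4, Myb, which was highest in G, and Adgrl4, which was highest in EC. The study names these types by markers that are partly counted here, among them Hba-x for EryP, so these counts were partly set in advance. Levels are given as UMIs per 1000000 UMIs of the same cells (CPM), each library on its own, and were not divided by transcript length, since each captured molecule is counted once. Intervals are exact 95% Poisson intervals for levels and exact 95% Clopper-Pearson intervals for shares, and they cover counting error only. With 1 liver, no test between animals was possible and no p-value is given.

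In primitive erythroblasts, all 3 embryonic globin genes were at their highest level of any cell type in both libraries. The study names EryP by Hba-x, so a high level of this gene there follows from the naming. Hbb-y reached 527810 CPM in the 170 EryP cells of library 1 and 406241 CPM in the 118 EryP cells of library 2. Hba-x reached 61938 CPM (95% interval 61441 to 62439) and 53556 CPM (53096 to 54020). Hbb-bh1 reached 25819 CPM (25499 to 26143) and 22329 CPM (22032 to 22629). Thus, the order of the genes in EryP was Hbb-y, Hba-x and Hbb-bh1 in both libraries, and the ranges of the 3 genes over both libraries did not overlap. Per cell, EryP held a mean of 2975 and 3324 UMIs of Hbb-y, 349 and 438 of Hba-x, and 146 and 183 of Hbb-bh1. Each EryP cell had at least 1 UMI of Hba-x and of Hbb-bh1.

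Hbb-y accounted for 85.7% and 84.3% of the embryonic globin UMIs of EryP, Hba-x for 10.1% and 11.1%, and Hbb-bh1 for 4.19% and 4.63%. On the side of the beta-like chains, Hbb-y made up 87.5% and 76.5% of the UMIs in EryP and Hbb-bh1 4.28% and 4.20%, with adult Hbb-bs and Hbb-bt making up the rest. Of the alpha-like UMIs, Hba-x made up 37.8% and 18.2%, so that EryP held more adult alpha-like than embryonic alpha-like RNA at this stage. Primitive cells of library 2 therefore held a larger share of adult globin RNA of both kinds than those of library 1. Adult globin genes accounted for 15.1% of all UMIs of EryP in library 1 and 34.3% in library 2. Adult globin was also higher in library 2 in 5 of the 6 types outside the erythroid lineage (1.76% and 4.78% in Hepa), but not in EC (2.86% and 2.11%). The parts of free RNA and of the higher UMI minimum of library 2 in this difference were not tested.

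Embryonic globin genes also varied within EryP. The cells of each library were divided into 3 groups of equal size by the Hba-x share of their alpha-like UMIs, a division chosen after the data had been seen. From the group with the lowest to that with the highest Hba-x share, Hbb-bh1 made up 3.29%, 4.74% and 5.82% of the embryonic beta-like UMIs in library 1, and 4.73%, 4.66% and 6.28% in library 2. EryP cells with more Hba-x among their alpha-like UMIs thus held more Hbb-bh1 relative to Hbb-y in both libraries. By summed UMIs, the lower and middle groups of library 2 did not differ in that direction. The Hbb-bh1 share of the median cell was 3.16%, 4.45% and 5.78% in library 1, and 3.93%, 4.46% and 6.58% in library 2. Over single EryP cells, Spearman's rho between both shares was 0.430 in library 1 (170 cells) and 0.447 in library 2 (118 cells), as a description of cells that share a library. The median number of detected genes rose along the same groups, from 428 to 680 in library 1 and from 440 to 657 in library 2, and its part in the pattern was not tested.

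The 3 genes parted in definitive erythroblasts. In the 3820 and 3612 Eryb cells, Hbb-bh1 was the leading embryonic globin gene, at 5129 CPM (5100 to 5157) and 3306 CPM (3287 to 3325). Hbb-y was at 971 and 759 CPM, and Hba-x at 119 and 110 CPM. Accordingly, Hbb-bh1 made up 82.5% and 79.2% of the embryonic globin UMIs of Eryb, against 4.19% and 4.63% in EryP. The embryonic gene with the lowest level in EryP was therefore the highest in Eryb as a whole. Among the subclusters, this held for Ery 4 to Ery 6 in both libraries, whereas Hbb-y led in Ery 1 (70.6% and 54.0%) and Ery 2 (52.5% and 63.1%). In Ery 1 of library 2, 1 cell held 57.8% of the Hbb-bh1 UMIs. In Ery 3, Hbb-bh1 led in library 1 (71.5%) and Hbb-y in library 2 (60.3%), where 5 cells held most of the Hbb-y.

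**Figure D1:**
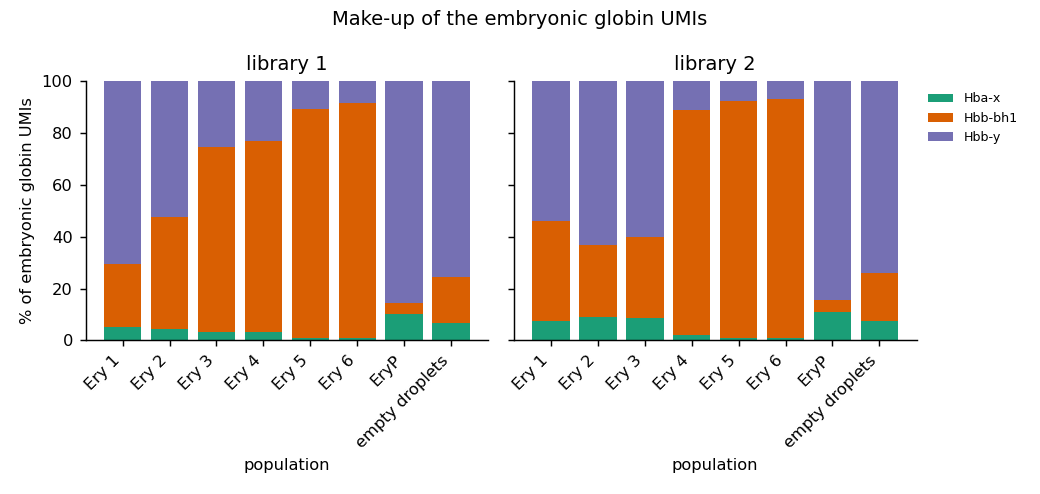
Make-up of the embryonic globin UMIs, in percent, in the erythroid subclusters, in EryP and in empty droplets of each library; each bar adds up to all UMIs of Hba-x, Hbb-bh1 and Hbb-y. Hbb-bh1 takes 90.6% and 92.2% in Ery 6 but 4.19% and 4.63% in EryP.

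EryP exceeded Eryb by 522-fold and 487-fold for Hba-x, by 544-fold and 536-fold for Hbb-y, and by 5.03-fold and 6.75-fold for Hbb-bh1. All 3 embryonic globin genes passed a 2-fold difference in both libraries in this direction, as did 1.80% of the 3785 genes with at least 10 CPM in either population. For Hba-x, the direction was set in advance by its use in naming EryP. The study also clustered the cells by expression before naming them. Whether this set the direction for Hbb-y and Hbb-bh1 was not tested. The folds of Hba-x and Hbb-y rest on low levels in Eryb. Over both libraries they were 509 and 553, and they rose to 872 and 950 without the 4 cells of library 1 and the 20 of library 2 outside EryP that held 200 or more Hbb-y UMIs, which are described further on. Among the adult genes, Hbb-bs (0.140 and 0.207) and Hbb-bt (0.287 and 0.382) were lower in EryP than in Eryb, whereas Hba-a1 (1.04 and 1.22) and Hba-a2 (0.890 and 1.05) were not. The beta-like globin RNA of the 2 erythroid lineages thus differed more than the adult alpha-like RNA did.

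Free RNA, which enters droplets with and without cells, was measured in barcodes with 1 to 50 UMIs. These empty droplets held Hbb-y at 11531 and 10355 CPM, Hbb-bh1 at 2719 and 2595 CPM, and Hba-x at 1003 and 1059 CPM. In empty droplets the 3 genes stood in the order Hbb-y (75.6% and 73.9% of embryonic globin UMIs), Hbb-bh1 (17.8% and 18.5%) and Hba-x (6.58% and 7.56%). Relative to the empty droplets of the same library, Eryb held 189% and 127% of the Hbb-bh1 level, but 8.42% and 7.33% of the Hbb-y level and 11.8% and 10.4% of the Hba-x level. Hepatoblasts, which belong to another lineage, held Hbb-y at 3.44% and 3.58% and adult Hbb-bs at 8.69% and 10.3% of the empty droplet level. The levels of Hbb-y and Hba-x in Eryb were thus a small part of the free RNA level, whereas that of Hbb-bh1 was above it.

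**Figure D2:**
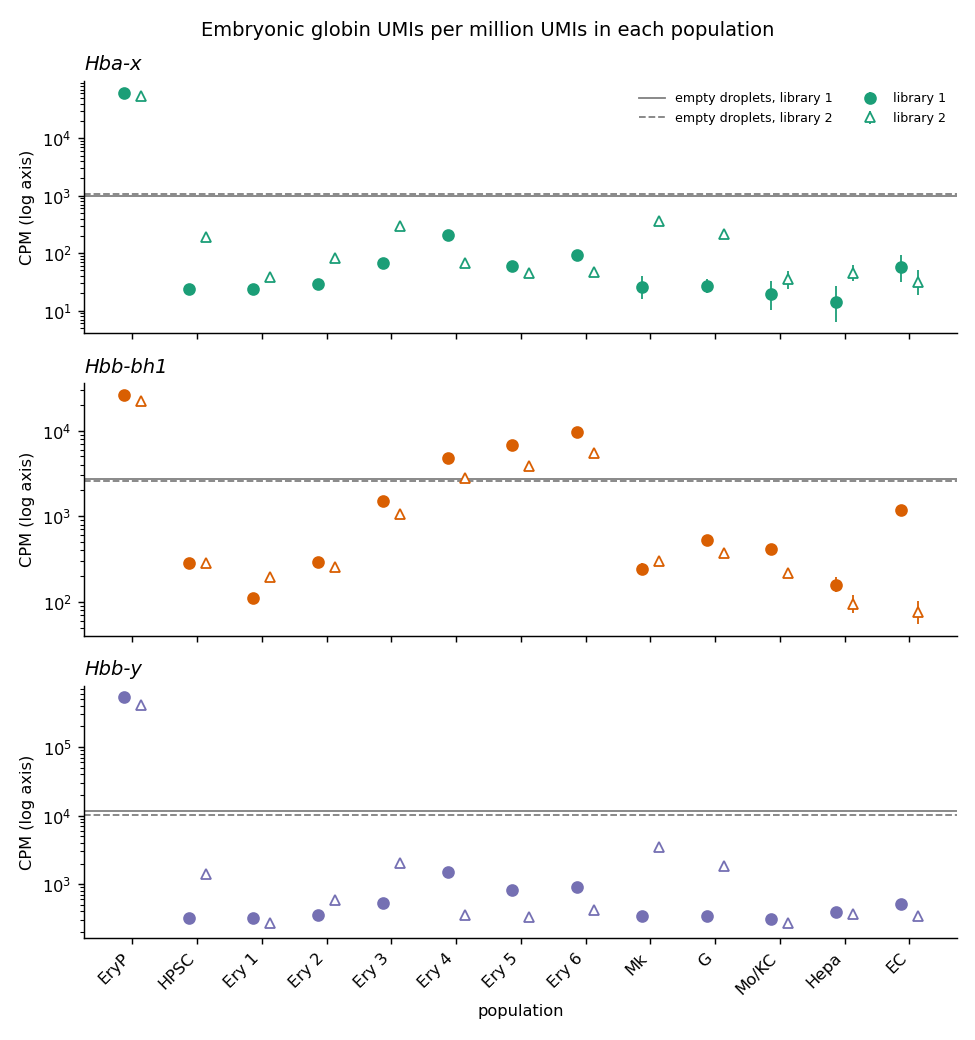
Level of each embryonic globin gene (CPM, log axis) in each population of library 1 (filled circles) and library 2 (open triangles), with exact 95% Poisson intervals; grey lines mark the level in empty droplets. Hbb-bh1 alone rises above the empty droplet lines outside EryP, in Ery 4 to Ery 6.

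Along the definitive subclusters, Hbb-bh1 in CPM rose at each step from Ery 1 to Ery 6 in both libraries. In library 1, its level was 110 CPM in Ery 1, 293 in Ery 2, 1502 in Ery 3, 4727 in Ery 4, 6856 in Ery 5 and 9705 in Ery 6. In library 2, it was 196, 256, 1065, 2769, 3872 and 5450 CPM in the same order. The intervals of neighbouring subclusters did not overlap within a library, but the levels of Ery 4 and Ery 5, and of Ery 5 and Ery 6, overlapped between libraries. From Ery 3 to Ery 6, the number of UMIs per cell was closer between libraries. It was 15.4 and 13.5 in Ery 3 and 27.7 and 26.6 in Ery 4. In Ery 5 it was 40.3 and 38.4, and in Ery 6 it was 45.4 and 45.9, with no overlap between neighbours. From Ery 1 to Ery 2, UMIs per cell rose in library 1 (2.90 to 4.83) but fell in library 2 (5.08 to 4.85). Ery 3 exceeded Ery 1 by 13.6-fold and 5.42-fold, and Ery 6 exceeded Ery 3 by 6.46-fold and 5.12-fold. In Ery 1 of library 2, 1 cell with 1053 Hbb-bh1 UMIs held 57.8% of the Hbb-bh1 UMIs. This cell raises the level of Ery 1 and lowers the fold over Ery 1 in that library.

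With all cells counted, Hbb-y and Hba-x showed no such course. The level of Hbb-y in library 1 was 321, 356, 532, 1486, 836 and 912 CPM from Ery 1 to Ery 6, and in library 2 it was 275, 580, 2058, 351, 329 and 414 CPM. For Hba-x, library 1 gave 23.6, 28.9, 66.6, 209, 60.6 and 93.1 CPM in the same order, whereas library 2 gave 37.9, 83.4, 292, 68.4, 44.6 and 46.8 CPM. The highest of these levels fell in Ery 4 in library 1 and in Ery 3 in library 2 for both genes, so the libraries did not give a common order of subclusters. Without cells of 200 or more Hbb-y UMIs, a filter that uses Hbb-y itself, Hbb-y rose at each step in library 1. It was then 321, 356, 480, 747, 836 and 912 CPM. In library 2 it was 241, 299, 301, 350, 329 and 368 CPM, with a fall only from Ery 4 to Ery 5. Hba-x was then highest in Ery 6 in library 1 (93.1 CPM) but in Ery 3 in library 2 (72.9 CPM). Over both libraries, Ery 6 exceeded Ery 1 by 2.09-fold for Hba-x and 2.00-fold for Hbb-y in CPM, but per cell the direction turned to 0.521 and 0.498, since cells of Ery 6 held fewer UMIs in all. For Hbb-bh1, the fold was 46.1 in CPM, and Ery 6 was also higher per cell. The Ery 1 level in this fold includes the cell of library 2 with 1053 Hbb-bh1 UMIs.

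Between Ery 3 and Ery 1, Hbb-bh1 and Hba-x (2.82-fold and 7.70-fold) were at least 2-fold higher in both libraries and Hbb-y (1.66-fold and 7.49-fold) was not, and 5.94% of the 6401 genes tested passed in this direction. Without cells that held 200 or more Hbb-y UMIs (5 of Ery 3 and 1 of Ery 1 in library 2, and 1 of Ery 3 in library 1), these folds were 2.71 and 2.23 for Hba-x and 1.50 and 1.25 for Hbb-y. Between Ery 6 and Ery 3, Hbb-bh1 was the only member of the 3 that passed, among 3.11% of 4983 genes. Hba-x (1.40 and 0.161) and Hbb-y (1.72 and 0.201) went in opposite directions in the 2 libraries. Without the same kind of cells, Hba-x still did (1.46 and 0.582), but Hbb-y was higher in Ery 6 in both libraries (1.90 and 1.22). The adult genes Hba-a1 (3.28 and 2.40), Hba-a2 (4.47 and 3.52), Hbb-bs (3.82 and 2.85) and Hbb-bt (3.40 and 2.58) rose by less than Hbb-bh1 did between these subclusters. As a result, the share of Hbb-bh1 among the beta-like UMIs rose from 1.34% in Ery 3 to 2.34% in Ery 6 in library 1 and from 0.576% to 1.08% in library 2, while that of Hbb-y fell from 0.474% to 0.220% and from 1.11% to 0.0820%. Without cells of 200 or more Hbb-y UMIs, the share of Hbb-y fell from 0.427% to 0.220% and from 0.163% to 0.0729%, so 5 cells of Ery 3 made up most of the fall in library 2.

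The level of Hbb-bh1 in definitive erythroblasts was carried by a minority of cells. The median Eryb cell held 2 UMIs of Hbb-bh1 in both libraries, against means of 32.6 and 32.5, and the highest cell held 919 UMIs in library 1 and 1140 in library 2. In Ery 6, the 25th percentile, the median, the 75th and the 90th percentile were 1, 2, 19 and 159 UMIs in library 1, and 0, 2, 15 and 166 UMIs in library 2. Thus, more than 1 in 10 cells of the most mature subcluster held Hbb-bh1 at numbers found in EryP, where the median was 130 and 156 UMIs. The tenth of cells with the most Hbb-bh1 held 71.2% and 74.8% of its UMIs in Ery 6 and 81.0% and 80.8% in Ery 3, but 25.2% and 26.9% in EryP. The median was 2 UMIs of Hbb-bh1 in Ery 1 and in Ery 6 of both libraries, but cells of Ery 1 were deeper (a median of 26146 against 4378 UMIs in all in library 1).

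**Figure D3:**
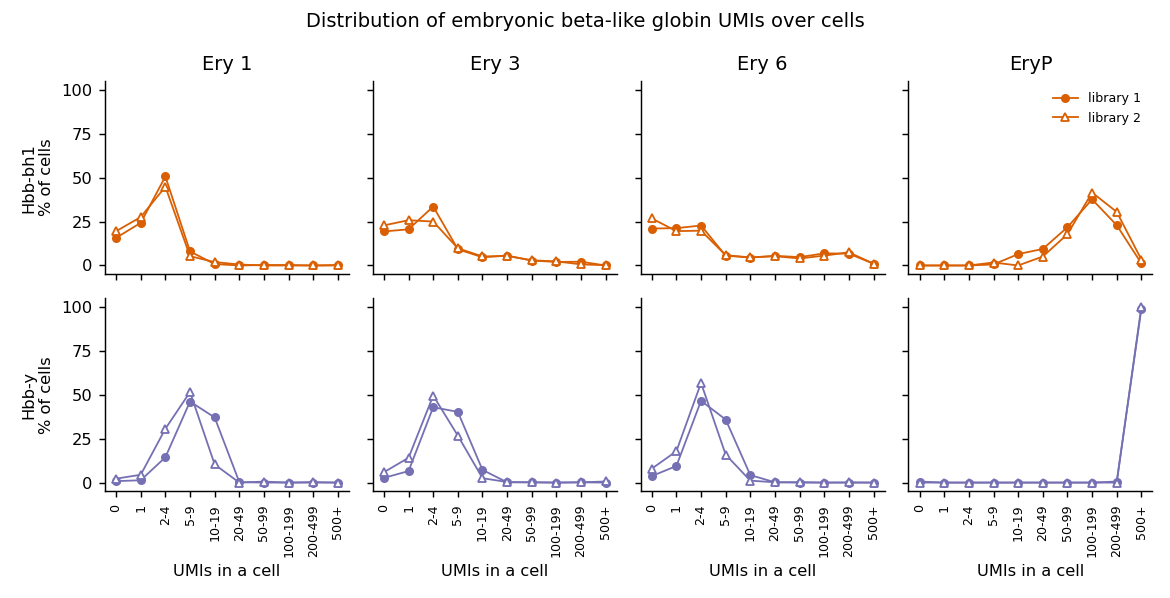
Distribution of Hbb-bh1 (upper row) and Hbb-y (lower row) UMIs over single cells in Ery 1, Ery 3, Ery 6 and EryP, as the percent of cells in each class of UMIs (not thinned). In Ery 6, Hbb-bh1 has a long tail up to the counts of EryP (median 130 and 156 UMIs), whereas Hbb-y in Ery 6 stays near its medians of 4 and 3 UMIs.

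To count such cells at equal depth, each cell was thinned to 3600 UMIs, and cells with fewer were left out, so that 981 of the 1218 Ery 6 cells of library 1 and all 1176 of library 2 remained. The share of cells with 20 or more Hbb-bh1 UMIs was 0% (upper limit 0.979%) in Ery 1, 1.49% in Ery 2, 6.66% in Ery 3, 17.7% in Ery 4, 17.6% in Ery 5 and 23.8% (21.1% to 26.5%) in Ery 6 of library 1. In library 2, it was 0.279%, 1.31%, 4.81%, 13.1%, 16.3% and 19.2% (17.0% to 21.6%). The number 20 was chosen after the data had been seen. Cells of this kind thus became more frequent with each step up to Ery 4 and were most frequent in Ery 6 in both libraries. The intervals of Ery 2 and Ery 3, and of Ery 3 and Ery 4, were apart, whereas those of the other neighbours overlapped. For Hbb-y, the same share was 0.102% and 0.340% in Ery 6 and reached its highest value of 2.83% in Ery 2 of library 2. For Hba-x, it did not exceed 1.31% in any definitive subcluster. In EryP, 92.9% and 95.8% of cells passed this number for Hbb-bh1. At this depth the median cell also differed, with 0 UMIs of Hbb-bh1 in Ery 1 of both libraries and 2 and 1 UMIs in Ery 6. Among cells with fewer than 20 UMIs, the share with at least 1 was 25.6% (21.3% to 30.3%) and 23.2% (18.9% to 27.9%) in Ery 1 and 65.1% (61.6% to 68.5%) and 47.2% (43.9% to 50.4%) in Ery 6. The rise along the subclusters was thus present in the frequency of cells with many UMIs. At low counts it was not particular to Hbb-bh1. The thinned share of cells with any Hbb-y UMI was 66.4% to 70.7% and 51.3% to 59.7% in Ery 1 and Ery 2. In Ery 3 to Ery 6, it was 81.25% to 95.5% and 61.5% to 71.0%. The part of free RNA and of depth before thinning in the low counts was not tested.

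**Figure D4:**
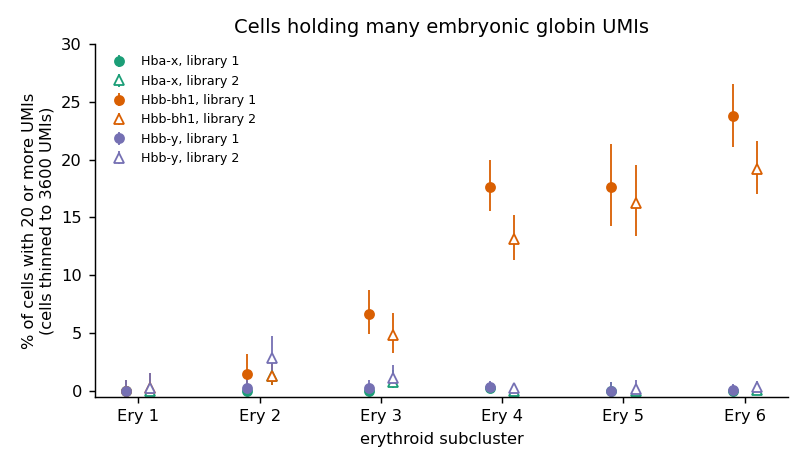
Percent of cells with 20 or more UMIs of each embryonic globin gene after thinning to 3600 UMIs, in Ery 1 to Ery 6 of both libraries, with exact 95% Clopper-Pearson intervals. The Hbb-bh1 points climb to 23.8% and 19.2% in Ery 6, while those of Hba-x and Hbb-y stay below 3% in each subcluster.

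The share of cells with any UMI was less telling, since Hbb-y was found in most cells of each type. After thinning, at least 1 UMI of Hbb-y was present in 95.5% and 71.0% of Ery 6 cells, but also in 87.5% and 67.7% of hepatoblasts, at median depths of 4378 and 7882 UMIs for Ery 6 and 22391 and 21910 for Hepa before thinning. The share in Ery 6 was above that of hepatoblasts in both libraries, but within the interval of the 24 and 31 hepatoblasts that remained (67.6% to 97.3% and 48.6% to 83.3%). The share for Hbb-bh1 rose from 25.6% and 23.4% in Ery 1 to 73.4% and 57.3% in Ery 6. That for Hba-x was 20.5% and 12.0% in Ery 6, against 2.17% to 15.8% and 6.90% to 16.1% among the 6 types outside the erythroid lineage. Hba-x was thus above these values in Ery 6 of library 1, although the highest of them came from 19 EC, and within them in library 2. Without thinning, the shares in Ery 6 were 96.3% and 92.1% for Hbb-y, 79.0% and 73.2% for Hbb-bh1, and 25.5% and 23.0% for Hba-x.

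The definitive cells were ordered in 10 groups by the share of each cell's UMIs that came from the 4 adult globin genes. Embryonic globin UMIs count in the total of this share, so many Hbb-bh1 UMIs place a cell lower. In this order, Hbb-bh1 rose and then fell. In library 1, its level was 83.0 CPM in the group with the least adult globin, reached 8194 CPM in the sixth group and was 824 CPM in the last, which held 28 cells of this library. In library 2, it was 64.6 CPM in the first group, reached 5420 CPM in the ninth and was 2932 CPM in the last. The share of cells with 20 or more thinned Hbb-bh1 UMIs reached 24.1% in the fifth group of library 1 and 20.3% in the ninth group of library 2, and was 0% and 12.4% in the last group. In both libraries the cells with the largest share of adult globin thus held less Hbb-bh1 than cells at intermediate shares. How much of this comes from Hbb-bh1 UMIs counting in the total was not tested. The libraries, which differ in their adult globin share, peaked at different places in this common order. When each library was divided on its own, Hbb-bh1 was highest in the seventh group of library 1 (8390 CPM) and the eighth of library 2 (5399 CPM), and the last group was at 4506 and 2561 CPM, with 13.0% and 11.3% of cells at 20 or more thinned UMIs. The median cell held 1 to 3 UMIs in each group of either division, before thinning.

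Cells of Ery 6 with 20 or more thinned Hbb-bh1 UMIs (233 in library 1 and 226 in library 2) were set against those with 0 to 4 (654 and 846), leaving out cells with 200 or more Hbb-y UMIs. This division was chosen after the data had been seen, and 27 and 32 cells lay near the boundary, between 15 and 24 UMIs. Hbb-bh1, which defined the groups, reached 37422 and 26082 CPM in the first group, above its level in EryP, and made up 8.99% and 5.24% of their beta-like UMIs. Despite this level, Hbb-y was at 888 and 375 CPM in cells with many Hbb-bh1 UMIs and at 927 and 348 CPM in cells with few, a fold of 0.959 and 1.08.

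Hba-x differed between the same groups, at 131 CPM (112 to 153) against 63.9 CPM (55.5 to 73.2) in library 1 and at 69.4 CPM (58.1 to 82.2) against 35.2 CPM (31.0 to 39.9) in library 2. These are folds of 2.05 and 1.97, and differences of 67.2 and 34.2 CPM. Hbb-y differed by -38.1 and 27.0 CPM between the same groups. The source of the difference in Hba-x was not tested. Cells with many Hbb-y UMIs were left out in the same way in Ery 3 to Ery 6. Hba-x was then higher in the group with many Hbb-bh1 UMIs in each of 8 comparisons (both libraries), by 1.23-fold to 5.33-fold. The intervals were apart in 6 of these. This filter uses Hbb-y itself and so limits the fold of Hbb-y. With all cells, Ery 4 of library 1 gave 9.40-fold for Hba-x and 5.94-fold for Hbb-y. The Hbb-y folds of the other comparisons then lay between 0.959 and 1.36. Few cells decided the difference in Hba-x. In Ery 6, 6 cells in each library held 5 or more Hba-x UMIs among those with many Hbb-bh1 UMIs (69 of 161 and 57 of 134 Hba-x UMIs), against 2 and 3 cells among those with few. Without cells of 5 or more Hba-x UMIs, the fold in Ery 6 was 1.29 in both libraries, and over the 8 comparisons it lay between 0.718 (Ery 5 of library 2) and 1.83 (Ery 3 of library 1). The share of thinned cells with an Hba-x UMI was 25.3% (19.9% to 31.4%) against 17.7% (14.9% to 20.9%) in library 1, and 12.0% (8.02% to 16.9%) against 11.6% (9.50% to 13.9%) in library 2.

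**Figure D5:**
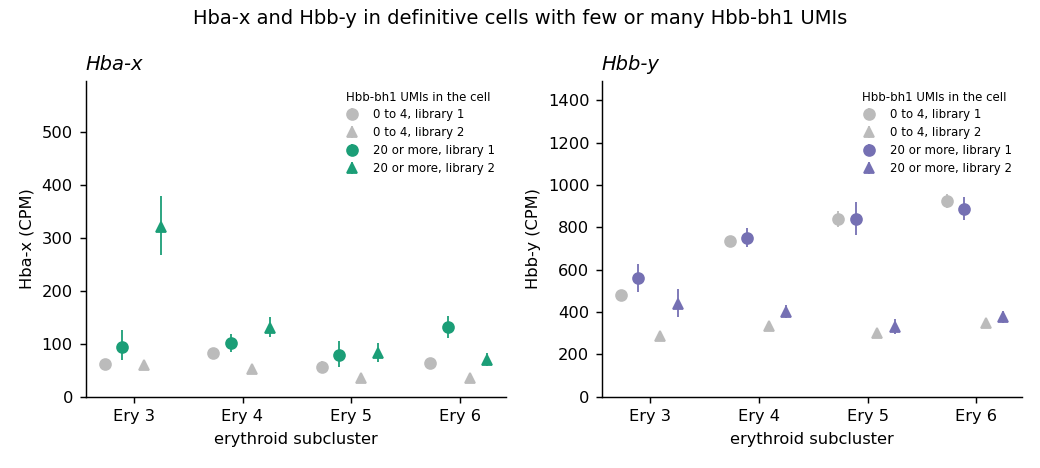
Level of Hba-x (left) and Hbb-y (right), in CPM with exact 95% Poisson intervals, in cells of Ery 3 to Ery 6 with 0 to 4 (grey) or with 20 or more (coloured) thinned Hbb-bh1 UMIs; circles are library 1 and triangles library 2. The cells with many Hbb-y UMIs that the text leaves out are left out here too. Hba-x is then higher with many Hbb-bh1 UMIs in 8 of 8 comparisons, whereas the folds of Hbb-y lie between 0.959 and 1.51. Without cells of 5 or more Hba-x UMIs, the folds of Hba-x lie between 0.718 and 1.83. With all cells, Ery 4 of library 1 gives 9.40 for Hba-x and 5.94 for Hbb-y. The other Hbb-y folds then lie between 0.959 and 1.36.

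Between both groups of Ery 6 cells, 0.0443% of 2256 genes were at least 2-fold higher in both libraries, which was 1 gene, Hbb-bh1 itself, and 1 gene, Zfp800 (0.418 and 0.414), was at least 2-fold lower. Hba-x ranked second by its lower fold, before Paics, an enzyme of purine synthesis (1.77 and 1.93). The adult globin genes were at 0.902-fold to 1.01-fold. The median cell of both groups held similar numbers of genes (834 and 791 in library 1, 716.5 and 702 in library 2). Hbb-bh2, the gene next to Hbb-bh1 in the cluster, had 9 UMIs in cells with many and 2 in cells with few Hbb-bh1 UMIs in library 1, and 3 and 0 in library 2, too few for a fold.

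Single cells with very many Hbb-y UMIs held much of the Hbb-y and Hba-x outside EryP. In library 1, 4 of 5310 cells outside EryP held 200 or more Hbb-y UMIs (347 to 4319), and in library 2 20 of 4939 did (206 to 6095). The 5 such cells of Ery 3 in library 2 held 85.6% of its Hbb-y, and the 3 in Ery 4 of library 1 held 50.0%. In library 2, 1 cell held 91.0% of the Hbb-y of Mk, 1 cell 84.4% of that of G and 4 cells 83.3% of that of HPSC. The ratio of Hbb-y to Hba-x over these cells was 6.36 and 7.80, against 8.52 and 7.59 in EryP, and in single cells it ran from 4.79 to 31.5 and from 4.19 to 16.2. Their summed Hbb-bh1 came to 10.8% and 3.71% of their Hbb-y, against 4.89% and 5.50% in EryP. In library 1, this sum rests mainly on cells with 535 and 134 Hbb-bh1 UMIs, while the rest held 10 and 4. Whether these barcodes held more than 1 cell was not tested.

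Without these cells, the level of Hbb-y from Ery 3 to Ery 6 was 480 to 912 CPM in library 1 and 301 to 368 CPM in library 2, and that of Hba-x was 60.6 to 93.1 and 42.4 to 72.9 CPM. The high values of both genes in Ery 4 of library 1 and Ery 3 of library 2 were thus absent without these cells. In the 6 types outside the erythroid lineage, Hbb-y without these cells was at 309 to 515 CPM and 235 to 370 CPM, with a median of 2 to 8 and 3 to 7 UMIs per cell. In Ery 3 to Ery 6, Hbb-y thus lay within the range of these types in library 2, and reached above it in library 1, where the median Ery 6 cell held 4 UMIs at a median depth of 4378 UMIs. Hbb-bh1 changed little without these cells, from 1502 to 9705 CPM and from 1039 to 5453 CPM between Ery 3 and Ery 6.

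Outside the erythroid lineage, Hbb-bh1 was at 159 to 1179 CPM in library 1 and 75.9 to 371 CPM in library 2, with a median of 0.5 to 2 UMIs per cell. The highest of these levels, in the 20 EC of library 1, came from 2 cells that held 92.6% of the UMIs. The adult globin genes took a median of 15.6% of the UMIs of these 2 cells, against 0.782% in all EC of the library. In library 1, the 1 to 2 cells with 50 or more Hbb-bh1 UMIs in Mk, G and Mo/KC likewise held 11.4% to 25.8% adult globin, and that in Hepa 2.55%.

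Over the 13 populations, Hba-x and Hbb-y had the pattern most like each other of 9470 genes, with a Pearson's r of 0.989 in library 1 and 0.996 in library 2 (log2 of CPM plus 1, populations of the same libraries, no test). Cells with 200 or more Hbb-y UMIs were included. In library 2, they held 91.0% of the Hbb-y and 91.9% of the Hba-x of Mk, and 85.6% and 75.3% of those of Ery 3. The likeness without them was not computed. The genes next most like both were Ccdc141 (r of 0.945 for Hba-x), Il1bos (0.915), Lmx1a (0.856) and Gm2061 (0.844). These 4 genes reached 19.8 to 86.6 CPM in EryP of library 1, against 0 to 3.69 CPM in Ery 6. The pattern most like Hbb-bh1 was that of the adult gene Hba-a2 (0.928), followed by Cfap57 (0.925), Hba-a1 (0.917), Gm14862 (0.908) and Gm10390 (0.902). Hbb-bh1 itself had an r of 0.573 with Hba-x and 0.540 with Hbb-y in library 2, and of 0.767 and 0.722 in library 1. Over the 6 definitive subclusters, the genes most like Hbb-bh1 were Runx1t1 (0.997), D5Ertd579e (0.996), Pdzk1ip1 (0.995), Rnf11 (0.995) and Ypel5 (0.993), from only 6 points each.

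Of 16 regulators of the switch from embryonic to adult globin, 1 was higher and 3 were lower by at least 2-fold in both libraries between Ery 3 and Ery 1. A further 1 had too few counts, and 5.94% of all genes tested were higher and 31.7% lower. Sox6, a repressor of Hbb-y in definitive cells, rose by 16.8-fold and 11.1-fold (4.76 to 79.8 CPM and 5.71 to 63.5 CPM). Myb (0.0242 and 0.0340), a factor of immature progenitors, and the RNA-binding factors Igf2bp1 (0.0882 and 0.124) and Igf2bp3 (0.219 and 0.134) fell. Bcl11a, a repressor of embryonic globin genes, was at 0.646 and 0.608 of its level in Ery 1, which did not pass.

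Between Ery 6 and Ery 3, 6 of the 16 regulators were at least 2-fold lower and none was higher, 6 had too few counts, and 72.9% of all 4983 genes tested were lower. They were Bcl11a (108 to 5.62 CPM and 91.4 to 3.13 CPM), Zbtb7a, Ldb1, Dnmt1, Mbd2 and Chd4. Globin genes took 15.7% and 28.6% of all UMIs in Ery 3 and 58.1% and 78.5% in Ery 6, which lowers the CPM of other genes. The folds of regulators per UMI outside the globin genes were not computed. Between EryP and Eryb, 7 were lower in EryP (Bcl11a, Sox6, Klf1, Zbtb7a, Gata1, Dnmt1 and Chd4), none was higher and 6 had too few counts. Of all 3785 genes tested, 73.2% were lower. Several of these calls rest on few UMIs in EryP, such as 2 and 5 of Bcl11a and 3 and 5 of Chd4. The same limit of CPM holds here, with globin genes at 76.7% and 82.5% of all UMIs in EryP and 36.7% and 59.2% in Eryb. Sox6 was at 4.18 and 8.29 CPM in EryP, against 108 and 69.5 CPM in Eryb. In cells of Ery 6 with many against few Hbb-bh1 UMIs, none of the 5 regulators with enough counts passed 2-fold, and Sox6 was at 1.13-fold and 1.08-fold.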

How the data were processed

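The authors deposited unnormalized UMI counts of each gene in each barcode, as 1 matrix of all 737280 barcodes and 1 of called cells per library, with an annotation table that names the cluster and type of each cell. According to the labels, Cell Ranger 2.1.1 gave these counts on mm10 with a GRCm38 annotation, and cells were clustered with Seurat 3.2.0. The header of 1 matrix of library 1 names another software version. Doublets were removed by sorting before encapsulation, and no doublet caller was run here.

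From these counts, UMIs were summed per cell type or subcluster over annotated cells and divided by all UMIs of the same cells (CPM). Cells were thinned to 3600 UMIs by 1 random draw with seed 1. Genes were compared between populations where both libraries had at least 10 CPM in either population, and called where both differed by at least 2-fold. Where a share was 0, its upper limit is that of the Clopper-Pearson interval. The members and gene lists were chosen with earlier results of these data known. The genes named are the embryonic, adult and neighbouring globin genes, 16 regulators of globin switching, and the 5 genes most like each member. Genes named beyond these lead a comparison or are exceptions. Ahsp, Hbb-bh0 and Hbb-bh3 were not found under these symbols and are not analysed here. The thinning, the intervals and the fold calls were tested on simulated data. Alternatives were each library alone, other filters, scales and empty droplet ranges, 20 groups, and, chosen after the data had been seen, other numbers of Hbb-bh1 UMIs and the removal of cells with many Hbb-y or Hba-x UMIs. Python 3.11.15, numpy 2.4.6, scipy 1.17.1, pandas 2.3.3 and matplotlib 3.10.9 were used.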

Additional observations from a re-analysis of the deposited data

Results flagged for a closer look

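In library 1, 284 barcodes were called as cells but are absent from the deposited annotation. Their summed levels of Hba-x (4003 CPM) and Hbb-y (49398 CPM) were above those of the empty droplets of the same library (1003 and 11531 CPM). No barcode of library 2 was called and left out. The study's methods state that cells with fewer than 200 features were removed, which left 5480 and 5057 cells. Whether all 284 barcodes fell under that limit was not tested. In library 2, 3311 barcodes that had not been called as cells held at least 1000 UMIs and 200 genes, and in 29 of these (0.876%) Hbb-y accounted for 20% or more of the UMIs, a share reached by 114 of the 118 EryP cells of this library and by no other annotated cell. Their median was 3215 UMIs, below the 4387 UMIs at which the called barcodes of library 2 begin. None of 168 barcodes of library 1 within the same limits reached this share. The upper limit there was 2.17%, above the value of library 2, so no difference is shown. Annotated cells of library 1 go down to 504 UMIs, so both sets of barcodes are also unlike. What these barcodes held was not tested.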

How the results depend on the processing

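The text rests on 1 liver, so the spread of 2 technical libraries is the only replicate error, and intervals cover counting error alone. No paired analysis was possible because the single group was not compared with another and no test between samples was made. For 124 results, 747 values were computed under alternatives. Of these, 588 moved by less than the spread between the libraries or stayed within the limit for counts. A further 156 moved by more and 3 changed direction. In 218 of the values 1 library was left out, so the value is 1 of those that define the spread and its place is largely set in advance. Of the other 529 values, 377 stayed within these limits. Of 76 folds, 73 stayed on the same side of 1. The fold of EryP over Eryb was 509 for Hba-x and 553 for Hbb-y. For Hba-x and Hbb-y in turn, it became 305 and 314 in cells with at least 1000 genes, 685 and 766 without the 4% of cells with the most UMIs, 650 and 696 without the top cell, 872 and 950 without cells of 200 or more Hbb-y UMIs (added after the data had been seen), 1247 and 1354 per 1000000 UMIs outside the globin genes, 650 and 665 as a mean of cell shares, and 423 and 459 per cell. That of Hbb-y was also 517 in cells with at least 500 genes, and 536 to 544 with either library left out. Per 1000000 UMIs outside the globin genes, the fold of Hbb-bh1 for EryP over Eryb went from 5.95 to 14.6, and for Ery 6 over Ery 1 the folds went from 46.1 to 157 (Hbb-bh1), from 2.09 to 7.09 (Hba-x) and from 2.00 to 6.78 (Hbb-y). Per cell, the last pair turned to 0.521 (Hba-x) and 0.498 (Hbb-y), because cells of Ery 6 held fewer UMIs. The level of Hbb-y in Eryb went from 7.72% of that in empty droplets to 9.66% with barcodes of 1 to 10 UMIs and to 8.59% with 51 to 200. In Ery 6 cells with many over few Hbb-bh1 UMIs, the fold of Hba-x over both libraries (2.11) was 1.97 to 2.05 with either library left out, 2.39 with at least 50 Hbb-bh1 UMIs and 1.36 without cells of 5 or more Hba-x UMIs, and that of Hbb-y (1.08) was 0.959 to 1.08 with either library left out, so that it changed direction in library 1 alone. With at least 1 UMI in place of 10 CPM, and with a 4-fold difference, genes higher in EryP than Eryb numbered 258 and 38 in place of 68, and genes lower 7904 and 1134 in place of 2771. Between Ery 3 and Ery 1 these numbers were 779 and 121 in place of 380 for higher genes, and 5027 and 692 in place of 2026 for lower genes. Between Ery 6 and Ery 3 they were 483 and 64 in place of 155, and 7266 and 2203 in place of 3633.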
